A study of Mus musculus with 43 samples.

Results

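The genes described here are those of the axon guidance families: the semaphorins with their plexin and neuropilin receptors, the ephrins with the Eph receptors, the Slits with the Robo receptors, and the netrins with the Unc5 receptors. They were taken by symbol, as every gene whose name on the array began with Sema, Plxn, Nrp1, Nrp2, Epha, Ephb, Efna, Efnb, Slit, Robo, Ntn or Unc5, with a digit required after Slit and Ntn. This gave 70 of the 18184 genes measured, on 153 of the 45007 probe sets, with each gene read from its brightest probe set. They comprised 20 semaphorins, 11 plexins and neuropilins, 8 ephrins, 13 Eph receptors, 7 Slit and Robo genes and 8 netrin and Unc5 genes. The other 3, Unc50, Unc5cl and Plxna4os1, share a prefix with a family and were kept because the rule names them.

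Axon guidance ligands are secreted or membrane-bound cues that attract or repel the growing tip of a nerve fibre, and their receptors pass the signal to the cytoskeleton. Netrins act through Dcc, neogenin and the Unc5 receptors, Slits through Robo receptors, semaphorins through plexins with or without a neuropilin, and ephrins through Eph receptors, in which signals can run into both contacting cells. The same families are used outside the nervous system, where they act in vessel growth, in cell sorting at tissue boundaries and in the shaping of epithelia, and Slit and Robo genes are known in the developing gonad.

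The study profiled whole mouse gonads, 1 animal per array, on the Affymetrix MOE430 v.2 array, in 43 arrays over 15 groups. It asked how the ovarian programme depends on Foxl2, a forkhead transcription factor of ovarian somatic cells, on Wnt4, a secreted ovary-determining signal, and on the germ cells, which are depleted in mice with the hypomorphic KitWv mutation. Stages were embryonic day 13 (E13), 15 (E15) and 16 (E16) and birth (P0). Each group had 3 arrays except both E15 groups, which had 2.

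The groups were as follows. Testes were taken at E13 and P0 with no genotype in the labels, and the methods describe the P0 testes as coming from Wnt4-null mice. Control ovaries were taken at E13, labelled Foxl2+/- although the methods call them wild-type littermates, and at E16 and P0 with no genotype in the labels. Foxl2-/- ovaries were taken at E13, E16 and P0, and Foxl2+/- ovaries at E16. The E15 groups were Wnt4+/- controls and Wnt4-null ovaries, on a mixed strain background that differed from the other groups. At P0 there were also Wnt4-/- ovaries that carried Foxl2+/-, Wnt4-/-Foxl2-/- ovaries, KitWvWv ovaries that carried Foxl2+/-, and KitWvWv Foxl2-/- ovaries. The comparison of Wnt4-null or Kit mutant ovaries with the P0 controls therefore carried a Foxl2+/- genotype on the mutant side.

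Signals are given as multiples of the common mean intensity to which every array had been scaled, and differences as log2 of the signal plus 0.01, which understates changes of dim genes. A gene was called when its Benjamini-Hochberg adjusted p in limma, over all probe sets, was under 0.05. Array medians lay between 0.18 and 0.295, and arrays of a group correlated at 0.922 to 0.982 across probe sets. Foxl2 signal was 0.606 to 2.77 in the Foxl2-null groups without a second mutation and 5.31 to 16.8 in their controls. It was 3.56 to 7.64 against 19.5 to 32.6 in the Kit mutant background and 0.682 to 0.826 against 5.13 to 5.9 in the Wnt4-null background. Wnt4 signal was 0.176 to 0.414 in the Wnt4-null groups, the double mutant included, and 0.581 to 1.31 in the E15 and P0 controls. Nothing in the labels separated cultures, litters or scan days, so the p-values measure the spread between mice and arrays. That spread and the SE were pooled over all 15 groups, so they are not those of the arrays compared alone.

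Of the 70 genes, 52 were called in at least 1 of 13 pairwise comparisons, where 63.3% of all genes were. The other 18 were called in none, among them Robo3, Robo4, Slit1, Unc5a, Sema3b, Sema3c, Sema3d and Sema3e. The netrin Ntn4 was called in 7 comparisons, Sema4f in 6, and the semaphorin receptor Plxnc1 and the Slit receptor Robo1 in 5 each. The probe set read for Sema4f in every comparison is of a type that can also match other sequences. Group means spanned more than 2 log2 units in 25 genes, or 35.7%, against 21.6% of all genes. Across the 15 groups the calls fell mainly between sexes, from E16 to P0 and in the Wnt4-null and Kit mutant ovaries, and were few in the Foxl2 comparisons. The calls of all genes lay likewise. Their share was 28.9% between sexes at P0, 30.6% in the Kit mutant and 30.9% from E16 to P0. In the 5 comparisons of Foxl2-null ovaries it was 0.66% to 1.4%.

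**Figure D1:**
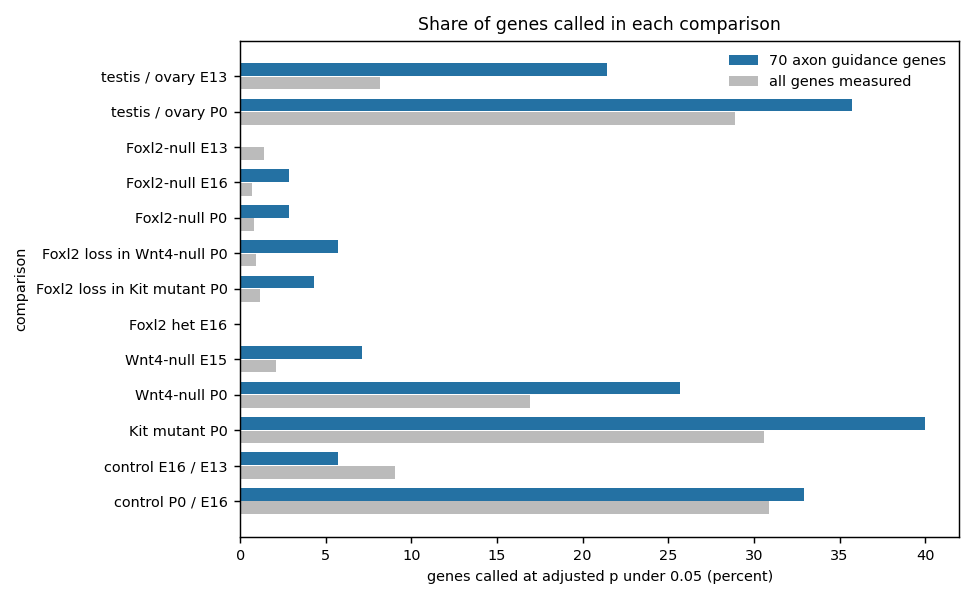
Percent of genes called in each comparison, for the 70 axon guidance genes and for all 18184 genes measured (horizontal axis, percent of genes with adjusted p under 0.05 in limma). The bars of the axon guidance genes were tallest in the Kit mutant ovary, in testis against ovary at P0 and in P0 against E16, the comparisons in which the bars of all genes were also tall.

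**Figure D2:**
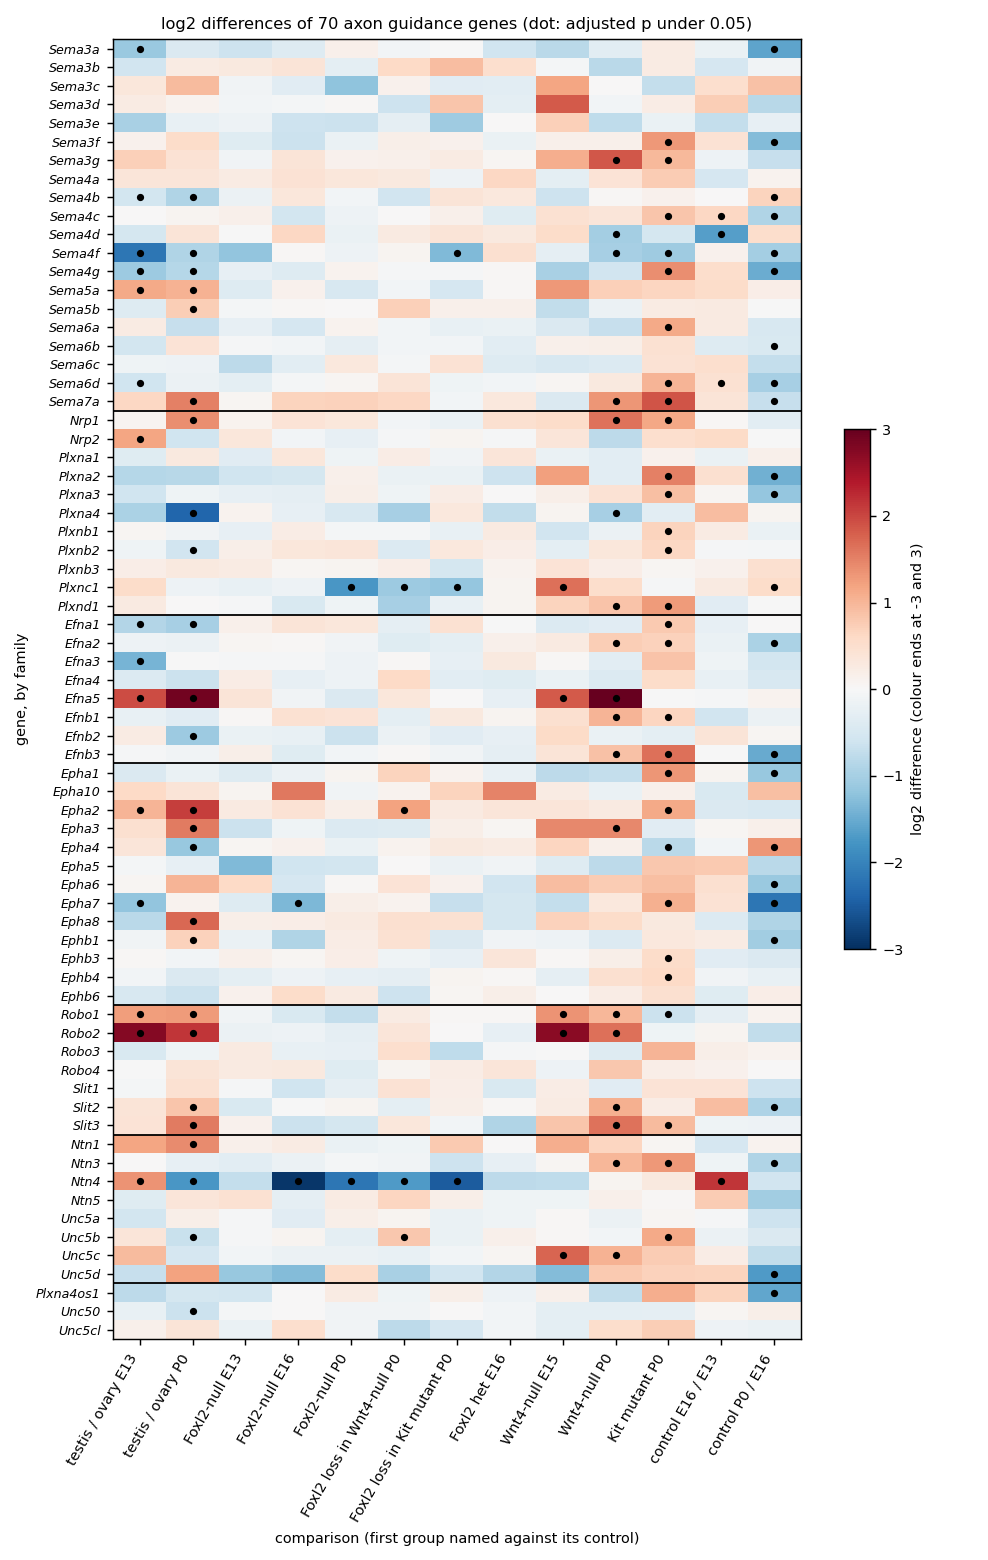
Log2 differences of the 70 axon guidance genes (rows, grouped by family) in the 13 pairwise comparisons (columns), red for higher and blue for lower in the first-named group, with a dot where the gene was called. Dots are dense in the sex, Wnt4-null P0, Kit mutant and P0 against E16 columns and sparse in the Foxl2 columns, where Ntn4 and Plxnc1 carry most of them.

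Ntn4 and Plxnc1, and few other genes of these families, were lower in ovaries that lacked Foxl2. Ntn4, a secreted laminin-related netrin found in basement membranes, was called lower in 4 of 5 comparisons of Foxl2-null with Foxl2-carrying ovaries, and Plxnc1, a receptor for semaphorin 7A, in 3 of 5. Robo1, a Slit receptor, was called in none of them. Averaged over the 5 comparisons, which together used 15 null and 15 reference arrays and shared none, 4 of the 70 genes were called against 3.04% of all genes, of which 1.16% rose and 1.88% fell. Of these Epha2 rose, and Efnb2, Ntn4 and Plxnc1 fell. The median difference of the 70 genes in that average was -0.06 on the log2 scale and that of all genes was -0.00.

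Ntn4 signal in control ovaries was 0.196, 0.237 and 0.379 at E13, 1.23, 1.32 and 1.02 at E16, and 0.989, 0.632 and 0.776 at P0. In Foxl2-null ovaries it was 0.188, 0.121 and 0.161 at E13, 0.132, 0.146 and 0.166 at E16, and 0.211, 0.144 and 0.153 at P0. The null arrays stayed within 0.121 to 0.211 over the stages at which the control arrays went up, and at each stage every null array lay below every control array. The difference was -2.92 ± 0.42 (SE, n = 3 each, adjusted p = 0.000103 in limma) at E16 and -2.17 ± 0.42 (adjusted p = 0.0031) at P0. At E13 it was -0.72 ± 0.42 and was not called (adjusted p = 0.358). Because only the E13 controls are labelled Foxl2+/-, stage and Foxl2 copy number cannot be told apart in the change of the controls after E13. In whole gonads, fewer cells of a type and less RNA per cell cannot be told apart.

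The same direction was measured in both mutant backgrounds. In Wnt4-null ovaries Ntn4 signal was 0.726, 0.783 and 1.03 with Foxl2+/- and 0.206, 0.304 and 0.257 with Foxl2-/-. In Kit mutant ovaries it was 0.707, 1.43 and 0.895 with Foxl2+/- and 0.213, 0.496 and 0.0359 with Foxl2-/-. Neither pair of groups overlapped, although the last group was itself widely spread. The difference was -1.69 ± 0.42 (adjusted p = 0.0431 in limma) in the Wnt4-null and -2.50 ± 0.42 (adjusted p = 0.00082) in the Kit mutant background. The mean over all 5 comparisons was -2.00 ± 0.19 (adjusted p = 2.28e-09) and was called in each of 30 fits without 1 array. In the Wnt4-null background Ntn4 lost its call without any 1 of the 6 arrays compared. A second, dimmer Ntn4 probe set, with a mean signal of 0.0931, was called in the 5-comparison mean at -0.68 and in none of the 5 alone. With 1 Foxl2 copy at E16, Ntn4 signal was 0.591, 0.664 and 0.814, between the control and null arrays with no overlap with either, and the difference from control was -0.78 ± 0.42 and was not called (adjusted p = 0.909).

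**Figure D3:**
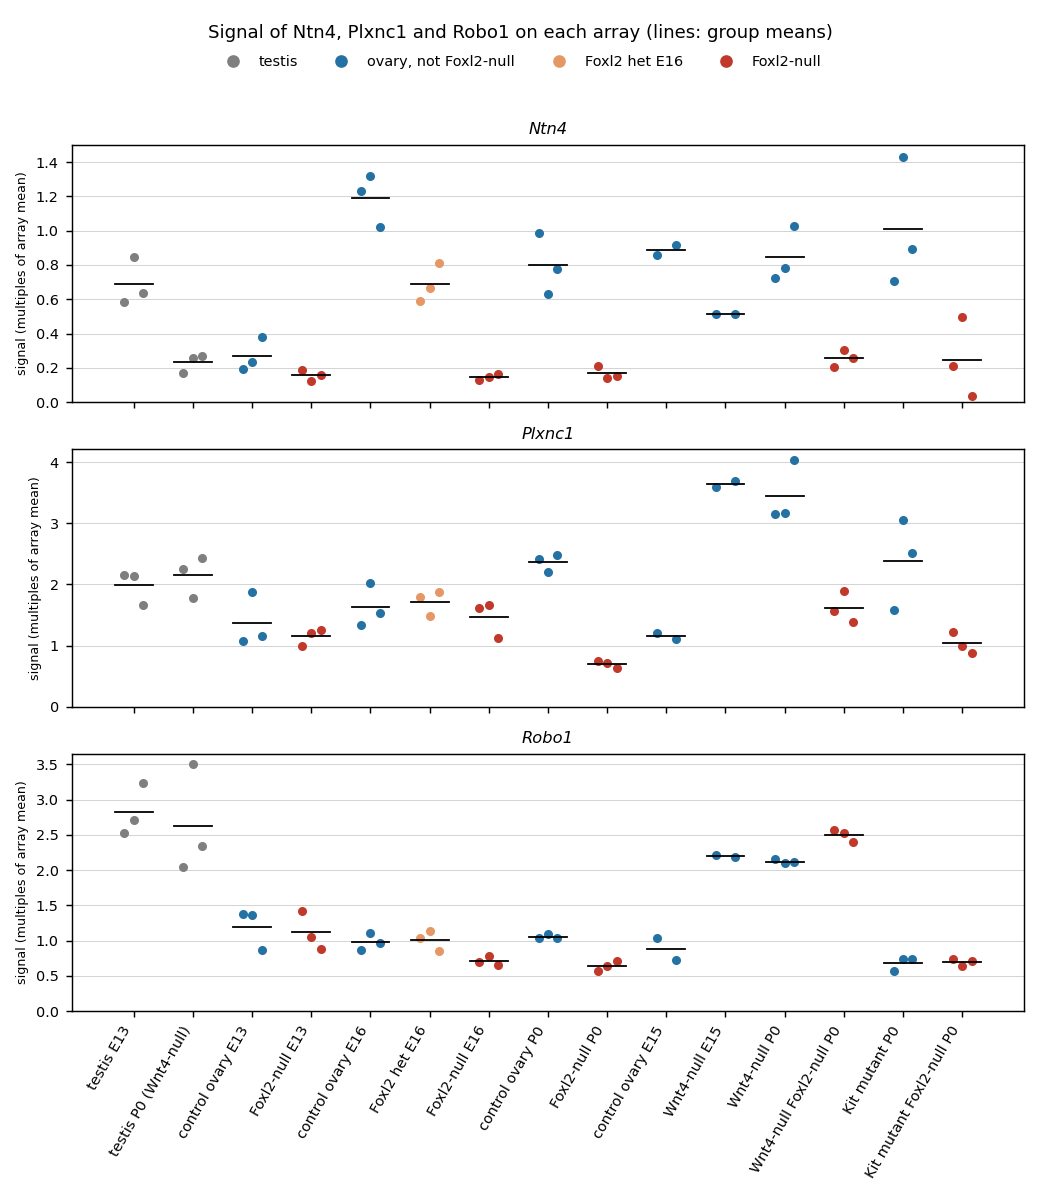
Signal of Ntn4, Plxnc1 and Robo1 on each of the 43 arrays (vertical axis, multiples of the common mean intensity) by group, with a point per array and a line at the group mean, in red for Foxl2-null ovaries, blue for other ovaries, orange for Foxl2+/- at E16 and grey for testes. Ntn4 stayed low in all 5 Foxl2-null groups, with group means from 0.148 to 0.256, Plxnc1 was lowest in Foxl2-null ovaries at P0, and Robo1 was highest in testes and Wnt4-null ovaries.

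Plxnc1 differed at birth. At P0 its signal was 2.42, 2.21 and 2.48 in control ovaries and 0.745, 0.714 and 0.639 in Foxl2-null ovaries, so that the lowest control array was well above the highest null array. In Wnt4-null ovaries it was 3.15, 3.17 and 4.04 with Foxl2+/- and 1.56, 1.9 and 1.39 with Foxl2-/-. In Kit mutant ovaries it was 1.58, 3.05 and 2.52 with Foxl2+/- and 1.23, 0.995 and 0.883 with Foxl2-/-. These groups did not overlap in any of the 3 comparisons. The differences were -1.75 ± 0.21 (adjusted p = 1.51e-06 in limma), -1.09 ± 0.21 (adjusted p = 0.00294) and -1.16 ± 0.21 (adjusted p = 0.00201), in that order, and all 3 calls were kept in every fit without 1 array.

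Before birth no such difference in Plxnc1 was called. Signal at E13 was 1.08, 1.88 and 1.16 in controls and 1, 1.2 and 1.26 in nulls, and at E16 it was 1.33, 2.03 and 1.53 in controls and 1.62, 1.67 and 1.12 in nulls. The groups overlapped at both stages, with differences of -0.21 (adjusted p = 0.622 in limma) and -0.15 (adjusted p = 0.98). The change of the Foxl2-null difference from E16 to P0 was tested directly and was -1.60 ± 0.29 (adjusted p = 0.02). Plxnc1 was the only 1 of the 70 genes called in that test, against 0.0385% of all genes. This call was lost in 6 of 12 fits without 1 array, namely without control E16 array 1 or 3, Foxl2-null E16 array 1 or 2, control P0 array 3 or Foxl2-null P0 array 3, and its highest adjusted p was 0.0796. Of the 5 other Plxnc1 probe sets, 4 were called lower at P0.

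Ntn4 and Plxnc1 lie on the same chromosome, with 8 protein-coding genes between them in RefSeq. All 8 were measured and 0 were called in the mean of the Foxl2 comparisons, with differences from -0.32 to 0.43. Because both genes were lower without Foxl2, a forkhead factor, the 250 bases before each start site are shown, taken from RefSeq on build GRCm38.p6, at chr10:93640799-93641048 on the + strand for Ntn4 and chr10:94944846-94945095 on the - strand for Plxnc1, each written from 5′ to 3′ with no part marked in capitals.
Ntn4: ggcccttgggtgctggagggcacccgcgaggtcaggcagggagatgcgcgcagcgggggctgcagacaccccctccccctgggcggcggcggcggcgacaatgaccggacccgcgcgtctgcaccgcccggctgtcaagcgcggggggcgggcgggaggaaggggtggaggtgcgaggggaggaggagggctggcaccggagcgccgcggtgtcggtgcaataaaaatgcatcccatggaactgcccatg
Plxnc1: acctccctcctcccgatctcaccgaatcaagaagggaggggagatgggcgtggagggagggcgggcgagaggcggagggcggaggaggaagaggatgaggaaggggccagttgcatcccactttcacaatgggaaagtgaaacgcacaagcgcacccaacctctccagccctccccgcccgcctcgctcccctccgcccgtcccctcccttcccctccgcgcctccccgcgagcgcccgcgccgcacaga
The forkhead motif GTAAACA, searched on both strands over 250 bases before to 50 after the start, was in 1199 of 32851 windows, or 3.65%, and in 0 of the 76 windows of the 60 guidance genes that had one. The windows shown were 73.2% and 68.8% G and C. The absence of these letters from a window of this size says nothing about binding by Foxl2 elsewhere or through another sequence.

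Robo1 lay lower in Foxl2-null ovaries at E16 and P0 but was not called. Its signal at E16 was 0.87, 1.11 and 0.97 in controls and 0.695, 0.776 and 0.651 in nulls, and at P0 it was 1.03, 1.1 and 1.04 in controls and 0.569, 0.645 and 0.714 in nulls. The groups did not overlap at either stage, and the differences were -0.47 ± 0.19 (adjusted p = 0.585 in limma) and -0.71 ± 0.19 (adjusted p = 0.0685). In the Wnt4-null and Kit mutant backgrounds the differences were 0.23 and 0.05. The mean over the 5 comparisons was -0.20 ± 0.08 (adjusted p = 0.251).

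The remaining Foxl2 calls were of single genes. At E13, 0 of the 70 genes were called in limma, where 1.4% of all genes were called. An unadjusted p under 0.05 was found for 5 of the 70, a threshold at which all genes were not counted. The E13 arrays deviated together by their number, and with that number as a block 1 gene was called, Sema4f, a membrane semaphorin, at -1.19 ± 0.33 (adjusted p = 0.0329, against 0.054 without the block). Without control array 1 or Foxl2-null array 2, Sema4f was called, and without control array 3 or Foxl2-null array 3, Epha5 was called, which made the count 1 in each case. Foxl2-null array 2 stood apart, with a summed signal of 28.6 over 14 striated muscle markers, against 5.48 to 8.52 on the other E13 ovary arrays, and without it the Ntn4 difference was -0.56 (adjusted p = 0.585 in limma) at E13 and -1.97 in the 5-comparison mean. Germ cell sums at E13 ran from 26.1 to 61.8 in controls and 26.9 to 49.8 in nulls, and the part of these cells was not tested.

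At E16, 2 genes fell, Ntn4 and Epha7, where 0.66% of all genes were called, 0.396% rising and 0.264% falling. Epha7, an Eph receptor for A-type ephrins, had a signal of 0.421, 0.417 and 0.449 in controls and 0.182, 0.156 and 0.154 in nulls. The groups were far apart relative to their spread, and the difference was -1.34 ± 0.31 (adjusted p = 0.0362 in limma). The Epha7 call was nevertheless lost in each of the 6 fits without 1 array, in 5 of which Ntn4 was the count of 1 (all but the fit without Foxl2-null array 2). Under quantile normalization 1 gene rose and 2 fell. At P0, 2 genes fell, Ntn4 and Plxnc1, against 0.825% of all genes called, 0.247% rising and 0.577% falling.

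In the Wnt4-null background 2 genes rose and 2 fell, against 0.924% of all genes called, 0.412% rising and 0.511% falling. Those that rose were Epha2, an Eph receptor of epithelia, with signals of 0.183, 0.234 and 0.292 with Foxl2+/- and 0.488, 0.626 and 0.535 with Foxl2-/-, and the netrin receptor Unc5b. Unc5b signal was 0.701, 1.01 and 0.983 with Foxl2+/- and 1.15, 1.92 and 1.75 with Foxl2-/-. Neither gene overlapped between the groups. The differences were 1.20 ± 0.29 (adjusted p = 0.034 in limma) for Epha2 and 0.81 ± 0.19 (adjusted p = 0.0249) for Unc5b. Epha2 lost its call in 5 of 6 fits without 1 array (all but the fit without Wnt4-null array 3), and Unc5b in 3 of 6 (without Wnt4-null array 1 or double-null array 2 or 3). The count was 1 without Wnt4-null array 1 or double-null array 2 or 3, and 2 without Wnt4-null array 2 or double-null array 1, and under quantile normalization 1 gene rose and 2 fell.

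In the Kit mutant background 3 genes fell, Ntn4, Plxnc1 and Sema4f, against 1.14% of all genes called, 0.286% rising and 0.858% falling. Sema4f signal was 0.0917, 0.13 and 0.124 with Foxl2+/- and 0.0538, 0.0259 and 0.0432 with Foxl2-/-, all dim and without overlap. Its difference of -1.32 ± 0.34 was just past the threshold (adjusted p = 0.04999 in limma) and was lost in each of the 6 fits without 1 array. The Sema4f probe set is of a type that can also match other sequences. With only the 6 arrays compared in the fit, none of these 3 genes was called, with adjusted p of 0.412 for Ntn4 and 0.261 for Plxnc1.

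The other genes called in the 5-comparison mean moved little. Efnb2, a membrane ephrin that marks arterial endothelium, fell by 0.32 ± 0.08 (adjusted p = 0.0309 in limma), with signals at P0 of 1.66, 1.9 and 1.92 in controls and 0.927, 1.33 and 1.28 in nulls. Epha2 rose by 0.47 ± 0.13 (adjusted p = 0.0407). Efnb2 was called in 20 of 30 fits without 1 array and Epha2 in 11 of 30, and the count was 2 without control E16 array 2, Foxl2-null E16 array 3, Kit mutant array 2 or Wnt4-null P0 array 2. Under quantile normalization 2 genes rose and 2 fell. In 10 of the 70 genes the difference had the same sign in all 5 comparisons, or 14.3%, against 9.7% of all genes. These were Epha2 and Epha8, which were higher, and Efnb2, Ntn3, Ntn4, Plxnc1, Plxnd1, Sema3e, Sema6b and Unc5c, which were lower. With 1 Foxl2 copy at E16, 0 of the 70 genes were called in limma, where 0.0055% of all genes were called. An unadjusted p under 0.05 was found for 6 of the 70, a threshold at which all genes were not counted.

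**Figure D4:**
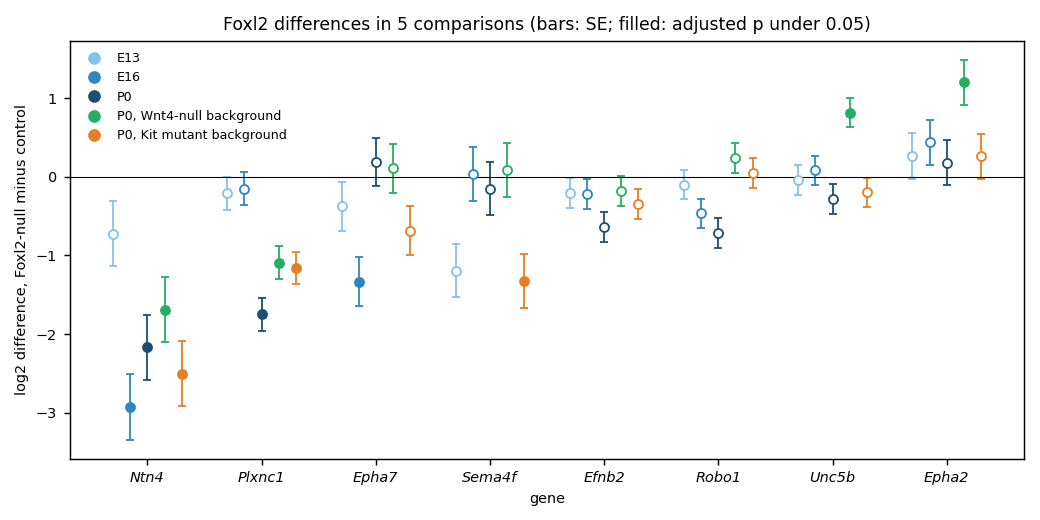
Log2 difference of Foxl2-null from Foxl2-carrying ovaries (vertical axis, with bars of 1 SE) in the 5 comparisons for Ntn4, Plxnc1, Epha7, Sema4f, Efnb2, Robo1, Unc5b and Epha2, filled where called. Ntn4 lies below 0 in all 5 comparisons, from -0.72 to -2.92, Plxnc1 drops from -0.15 at E16 to -1.75 at P0, and Robo1 is open in all 5.

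Whether the Foxl2 difference changed beside a second mutation was tested as an interaction. The reference ovaries were Foxl2+/- in both mutant backgrounds and carried no genotype label in the plain P0 comparison. Foxl2 copy number of the reference therefore cannot be told apart from the second mutation in these tests. In the Wnt4-null background 0 of the 70 genes were called in limma, where 0.379% of all genes were called. An unadjusted p under 0.05 was found for 13 of the 70, a threshold at which all genes were not counted. The interaction was 0.95 ± 0.27 for Robo1 (adjusted p = 0.151). Without Foxl2-null P0 array 2 or double-null array 1, Unc5b was called, as the count of 1. In the Kit mutant background 0 were called, where 0.022% of all genes were called. At the unadjusted threshold, for which no share of all genes is given, 4 of the 70 passed.

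A list of 56 co-receptors and effectors of these pathways, 53 of them measured, was counted beside the receptors. In the 5-comparison mean 1 rose and 4 fell, where 3.04% of all genes were called. Chn2, a Rac-inactivating chimaerin that acts downstream of guidance receptors, fell by 1.11 ± 0.13 (adjusted p = 4.81e-07 in limma), with Ablim1, an actin-binding LIM protein, at -0.57 and the collapsin response mediator Dpysl4 at -0.67. Chn2 was called lower at P0 (-1.40), in the Wnt4-null background (-1.18) and in the Kit mutant background (-1.63). None of the 53 was called at E13, at E16 or with 1 Foxl2 copy.

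Cell type markers moved with some of these comparisons. In the 5-comparison mean, 3 of 18 germ cell markers fell, 5 of 10 Sertoli markers rose and 1 fell, and 2 of 12 ovarian somatic markers rose and 2 fell, Foxl2 being on that list. Of all genes, 1.16% rose and 1.88% fell in that mean. At P0 the summed germ cell signal was 71.6 to 86.9 in Foxl2-null and 77.1 to 131 in control ovaries, with 0 of 18 called. In the Kit mutant background it was 3.01 to 4.85 with Foxl2-/- and 6.12 to 32.6 with Foxl2+/-, without overlap. At E16, 3 of 11 erythroid markers rose, where 0.396% of all genes rose, with sums of 9.2 to 34.3 in nulls and 1.68 to 8.96 in controls. The part of these cell types in the guidance gene differences was not tested.

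Testis and ovary differed in many of these genes, with receptors and ligands on both sides. At E13, 7 of the 70 genes were higher and 8 lower in testis, where 8.14% of all genes were called, 3.3% higher and 4.84% lower. At P0, 14 were higher and 11 lower, and 28.9% of all genes were called, 12.2% higher and 16.7% lower. Called at both stages and higher in testis were the Slit receptors Robo1 and Robo2, the ephrin Efna5, Epha2 and Sema5a, and lower were Efna1, Sema4b, Sema4f and Sema4g. The P0 testes came from Wnt4-null mice, so at P0 that genotype cannot be told apart from sex. The P0 ovaries used here were also the controls of the P0 mutant comparisons below. The E13 ovaries, labelled Foxl2+/-, were those of the Foxl2 comparison at E13.

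Among ligands, Efna5, a GPI-anchored repulsive ephrin, had signals of 2.24, 1.49 and 1.19 in E13 testes and 0.801, 0.311 and 0.254 in E13 ovaries, and of 3.1, 3.01 and 3.37 in P0 testes and 0.573, 0.29 and 0.435 in P0 ovaries. No ovary array reached the lowest testis array at either stage. The differences were 1.96 ± 0.39 (adjusted p = 0.000707 in limma) and 2.89 ± 0.39 (adjusted p = 5.22e-07). The semaphorin Sema4f was lower in testis at E13, at 0.0552, 0.132 and 0.121 against 0.269, 0.598 and 0.651, a difference of -2.18 ± 0.34 (adjusted p = 2.08e-05). Sema7a, the GPI-anchored ligand of Plxnc1, was called at P0 (1.51 ± 0.25), and Slit3 (1.55) was higher there as well. Efnb2 (-1.10), Sema4b (-0.91) and Efna1 (-0.99) were lower in testis at P0.

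Ntn4 changed sides between the stages. At E13 its signal was 0.582, 0.845 and 0.639 in testis and 0.196, 0.237 and 0.379 in ovary, and at P0 it was 0.169, 0.257 and 0.27 in testis and 0.989, 0.632 and 0.776 in ovary. The arrays of both sexes were apart at both stages, with testis above ovary at E13 and below it at P0. The differences were 1.35 ± 0.42 (adjusted p = 0.0435 in limma) and -1.74 ± 0.42 (adjusted p = 0.00179), and the change between the stages was not tested. The E13 ovaries are labelled Foxl2+/- and the P0 testes came from Wnt4-null mice, so genotype and stage cannot be told apart. The E13 call was lost in 5 of 6 fits without 1 array (all but the fit without ovary array 3), and the P0 call was kept in all 6.

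Among receptors, Robo1 signal was 2.53, 2.71 and 3.23 in E13 testes against 1.37, 1.36 and 0.864 in ovaries, and 2.04, 3.5 and 2.34 in P0 testes against 1.03, 1.1 and 1.04. Testis was higher at both stages without overlap, by 1.25 ± 0.19 (adjusted p = 9.85e-06 in limma) and 1.27 ± 0.19 (adjusted p = 2.89e-06). Robo2, a related Slit receptor, had a signal of 0.87, 0.814 and 0.939 in E13 testes against 0.166, 0.157 and 0.0663 in ovaries (2.75 ± 0.51), and differed by 2.15 at P0. The semaphorin receptor Plxna4 was at 0.0772, 0.0674 and 0.0498 in P0 testes and 0.467, 0.353 and 0.325 in P0 ovaries, the lowest adjusted p of the 70 genes in that comparison (-2.39 ± 0.30, 1.82e-07). Of the neuropilins, Nrp2 was called at E13 (1.17) and Nrp1 at P0 (1.39). Eph receptors called were Epha7 (-1.20) and Epha2 (1.01) at E13, and Epha2 (2.06) and Epha8 (1.73) at P0, the last with an ovary signal of 0.0275, near the pseudocount. Plxnc1 was not called, at 0.56 (adjusted p = 0.111) at E13 and -0.15 at P0.

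The E13 sex count was 8 without testis array 3. The calls of Robo1, Robo2, Efna5, Efna1, Sema4f, Sema4g and Sema6d were kept in each of the 6 fits without 1 array, and those of Nrp2, Epha2, Epha7, Efna3, Sema5a and Ntn4 were not. Sertoli and Leydig markers separated the E13 groups: 7 of 10 Sertoli markers rose (summed signal 30.9 to 41.1 in testis, 5.83 to 7.87 in ovary), and 5 of 6 Leydig markers rose. The summed germ cell signal overlapped at E13, at 31.7 to 32.2 in testis and 26.1 to 61.8 in ovary. At P0, 11 of 18 germ cell markers fell and 1 rose (8.27 to 14.4 in testis, 77.1 to 131 in ovary). The stromal and smooth muscle sum at P0 was 75.8 to 101 in testis and 41.4 to 63.1 in ovary. The part of these cell types in the guidance gene differences was not tested. Of the 53 co-receptors and effectors, 4 were higher and 8 lower at E13, led by the kinase Pak3 (3.05), and 11 were higher and 10 lower at P0. The shares of all genes called were 8.14% at E13 and 28.9% at P0.

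Without Wnt4 the calls were mostly upward. At E15, 5 of the 70 genes rose and none fell, against 2.1% of all genes called, 1.5% rising and 0.594% falling. The smallest adjusted p was that of Plxnc1, with signals of 3.59 and 3.69 in Wnt4-null and 1.21 and 1.1 in Wnt4+/- ovaries, a difference of 1.65 ± 0.25 (n = 2 each, adjusted p = 0.000213 in limma). Robo1 was at 2.21 and 2.18 against 1.03 and 0.72 (1.34 ± 0.23, adjusted p = 0.000758), and Robo2 at 1.1 and 0.87 against 0.185 and 0.106 (2.72 ± 0.63). The netrin receptor Unc5c (1.76) and Efna5 (1.83) made up the rest, and none of the 5 genes overlapped between the groups. With 2 arrays each, many genes that were not called, such as Sema6d and Slit1, did not overlap either. All 5 other probe sets of Plxnc1 were also called. Ntn4 was at 0.516 and 0.513 against 0.858 and 0.914 and was not called (-0.77, adjusted p = 0.588).

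These groups had 2 arrays each, and the count fell to 1 without control array 2 and to 2 without either null array. Only Plxnc1 kept its call in every such fit, in which the lone array is assumed to vary like the other groups. The strain mix of the E15 groups was shared by both. Of 12 ovarian somatic markers 5 fell, with Wnt4 being on that list, where 1.5% of all genes rose and 0.594% fell. The summed signal of these 12 markers was 29 to 30.7 in nulls and 50.4 to 52.6 in controls. The null arrays also differed from each other, with germ cell sums of 27.8 and 72.5 and nerve and glia sums of 8.7 and 4.75, against 37.8 to 42.3 and 4.43 to 4.83 in controls. Of 12 macrophage markers 2 rose (5.79 to 6.8 against 3.13 to 3.29), and of 11 stromal and smooth muscle markers 1 rose (54.9 to 65.1 against 38.1 to 40.6). The part of these in the guidance genes was not tested.

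At P0, 15 of the 70 genes rose and 3 fell in Wnt4-null ovaries, where 16.9% of all genes were called, 7.07% rising and 9.87% falling. The median difference of the 70 genes was 0.17, and that of all genes was -0.03. Ligands led: Efna5 signal was 4.31, 3.59 and 3.49 in Wnt4-null and 0.573, 0.29 and 0.435 in control ovaries, far apart, and the difference was 3.15 ± 0.39 (adjusted p = 4.04e-07 in limma). Sema3g (1.87), Sema7a (1.32), the ephrins Efnb1 (1.01) and Efnb3 (0.89), and Slit3 (1.62) and Slit2 (1.06) rose too. Sema4d, a semaphorin of immune cells and epithelia, fell by 1.01 ± 0.29 (adjusted p = 0.0142), and Plxna4 and Sema4f also fell.

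Receptors that rose at P0 without Wnt4 included Nrp1, the co-receptor for class 3 semaphorins and vascular endothelial growth factor. Nrp1 signal was 1.83, 2.02 and 2.07 in Wnt4-null and 0.726, 0.676 and 0.52 in control ovaries (1.62 ± 0.24, adjusted p = 7.5e-06 in limma). Robo1 was at 2.15, 2.1 and 2.11 against 1.03, 1.1 and 1.04 (0.9995 ± 0.19, adjusted p = 0.000225), and Epha3 (1.44) and Plxnd1 (0.87) rose. Plxnc1, called at E15, was not called at P0 (0.53, adjusted p = 0.091), and Ntn4 was at 0.09. The E15 and P0 differences were not tested against each other, and the E15 groups were of another strain mix.

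The Wnt4-null count at P0 was 11 without control array 2 and 10 without Wnt4-null array 1. Efna5, Efnb1, Nrp1, Robo1, Sema3g, Sema7a and Slit3 kept their calls in each of the 6 fits without 1 array, while Efnb3, Epha3, Plxnd1, Sema4d and Slit2 did not. Markers of several cell types moved with this comparison: 12 of 18 germ cell markers fell (summed signal 15.5 to 32.2 in Wnt4-null, 77.1 to 131 in control ovaries), 4 of 6 Leydig markers rose (10.6 to 20.9 against 3.17 to 3.97) and 5 of 10 Sertoli markers rose (26.2 to 32.8 against 10.8 to 12.7). Of 12 ovarian somatic markers 8 fell and 1 rose (19.4 to 24.5 against 41.9 to 48.1). Wnt4 and Foxl2 are on that list, and these ovaries were Wnt4-/- and Foxl2+/-. Foxl2 signal was 5.13 to 5.9 in them and 14.6 to 16.8 in controls. Of 15 endothelial markers 2 rose (15.7 to 17.8 against 10.8 to 11.9). Of 11 stromal and smooth muscle markers 4 rose (74.5 to 76.7 against 41.4 to 63.1). The part of all these cell types in the guidance gene differences was not tested. Of the co-receptors and effectors, 3 rose and 0 fell at E15 and 9 rose and 5 fell at P0, and the chemokine Cxcl12 rose at both, by 2.62 and 2.08. The shares of all genes called were 2.1% at E15 and 16.9% at P0.

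**Figure D5:**
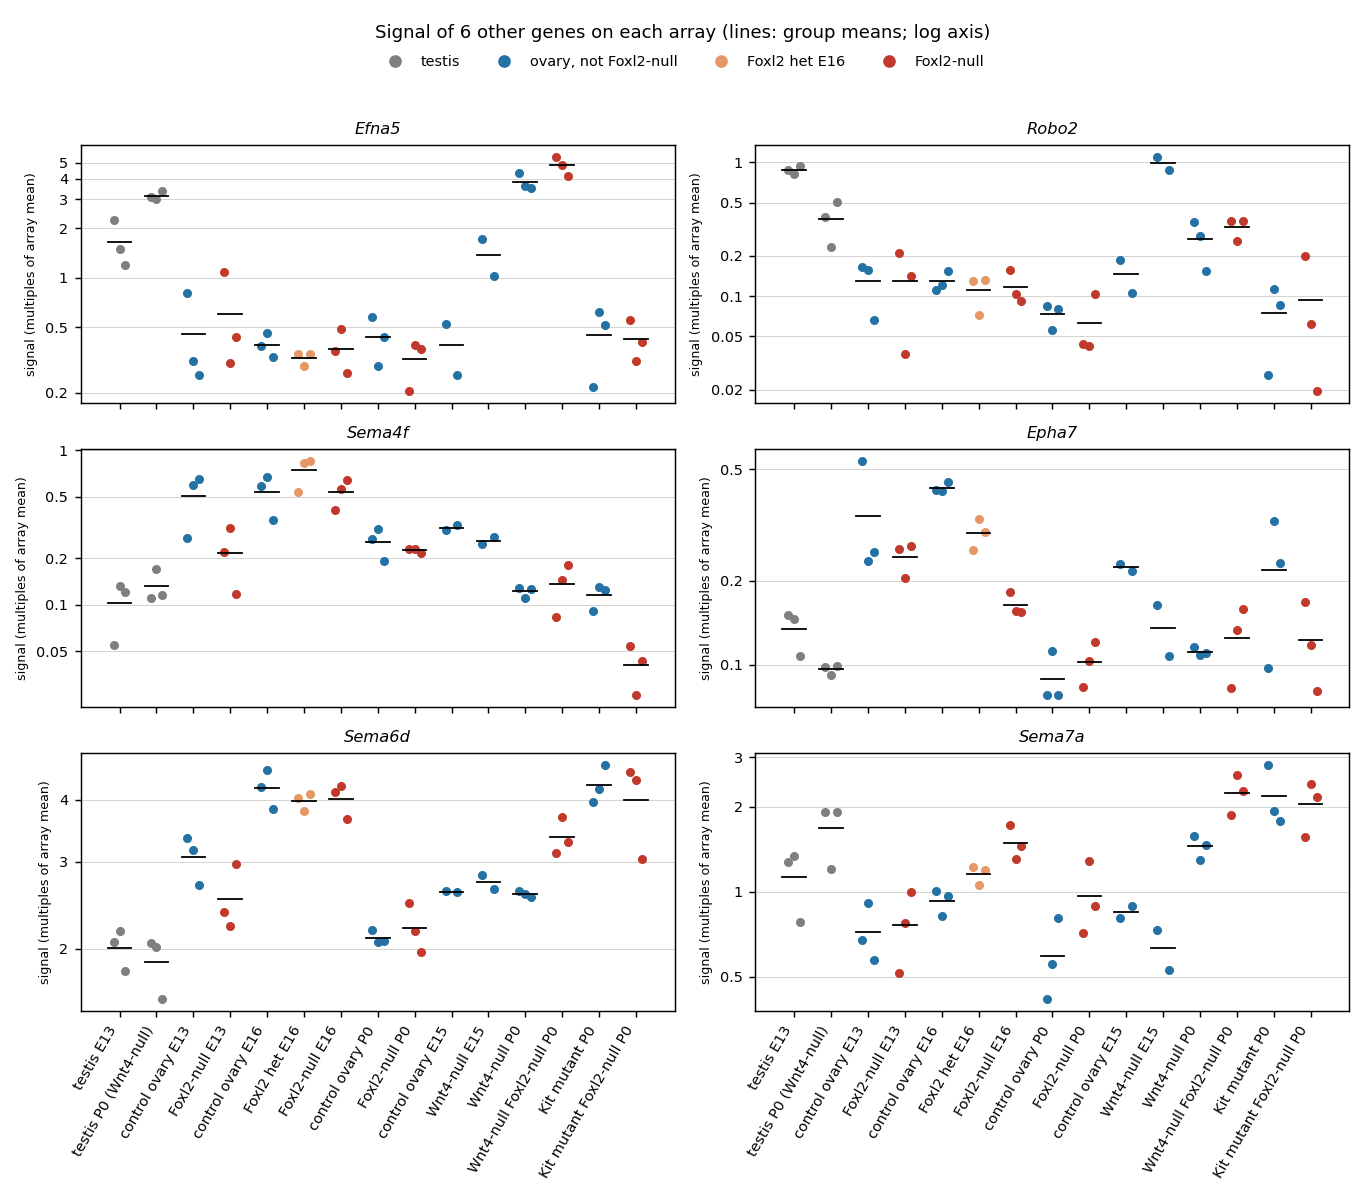
Signal of Efna5, Robo2, Sema4f, Epha7, Sema6d and Sema7a on each array (vertical axis, multiples of the common mean intensity, log scale) by group, with a point per array and a line at the group mean, coloured as in the plot of Ntn4, Plxnc1 and Robo1. Efna5 stands highest in the P0 testes and in the P0 ovaries without Wnt4, up to 4.31 in Wnt4-null and 5.44 in Wnt4/Foxl2 double-null ovaries. Sema7a is highest in the Wnt4/Foxl2 double-null ovaries (mean 2.24) and in Kit mutant ovaries with Foxl2+/- and with Foxl2-/- (means 2.18 and 2.05).

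The Kit mutant ovary had the most calls. At P0, 25 of the 70 genes rose and 3 fell, where 30.6% of all genes were called, 17.3% rising and 13.3% falling. The median difference was 0.55 for the 70 genes and 0.23 for all genes. By family, 7 semaphorins rose and 1 fell, 6 plexins and neuropilins rose, 5 Eph receptors rose and 1 fell, 4 ephrins rose, 2 netrin and Unc5 genes rose, and 1 Slit and Robo gene rose and 1 fell. Quantile normalization lowered the median of all genes to 0.05 and left 19 that rose and 3 that fell.

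Among the ligands called in the Kit mutant, Sema7a signal was 2.82, 1.93 and 1.78 in Kit mutant and 0.416, 0.554 and 0.808 in control ovaries, well apart, with a difference of 1.88 ± 0.25 (adjusted p = 7.98e-07 in limma). Sema6d, a transmembrane semaphorin, was at 3.96, 4.21 and 4.71 against 2.18, 2.06 and 2.07 (1.02 ± 0.14, adjusted p = 6.63e-07), and Efnb3 at 0.858, 0.989 and 0.983 against 0.464, 0.243 and 0.226 (1.64 ± 0.27). Sema4g (1.38), Sema4c (0.84), Ntn3 (1.301) and Efna1 (0.79) also rose, and Sema4f fell (-1.08).

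Among the receptors called, Unc5b signal was 2.14, 1.95 and 2.21 in Kit mutant and 0.864, 1.01 and 0.952 in control ovaries, and the difference was 1.15 ± 0.19 (adjusted p = 1.74e-05 in limma). Plxna2 was at 1.38, 2.14 and 1.57 against 0.452, 0.604 and 0.695 (1.52 ± 0.32), Plxnd1, a plexin of endothelium, rose by 1.27, Nrp1 by 1.16 and Epha1 by 1.33. None of these overlapped between the groups. Robo1 went the other way, at 0.566, 0.732 and 0.739 against 1.03, 1.1 and 1.04 (-0.64 ± 0.19, adjusted p = 0.0109), but its call was lost without Kit mutant array 1 (adjusted p = 0.0775). Epha4 also fell (-0.82), and Ntn4 (0.30) and Plxnc1 (-0.04) were not called. With only the 6 arrays compared in the fit, the count was 18.

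Germ cell loss is the known effect of this mutation, and 16 of 18 germ cell markers fell and 1 rose, with sums of 6.12, 10.3 and 32.6 in the Kit mutant arrays and 77.1 to 131 in controls. The 15 endothelial markers moved the other way: 8 rose and none fell, with sums of 19.1 to 21.5 against 10.8 to 11.9. The part of both in the guidance gene differences was not tested. Of the 53 co-receptors and effectors 12 rose and 5 fell, where 30.6% of all genes were called. Among them were neogenin, the netrin and repulsive guidance receptor Neo1 (1.05), and Chn1, another chimaerin (-2.02).

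Control ovaries were compared between stages with the same arrays as above. From E13 to E16, 3 of the 70 genes rose and 1 fell, against 9.02% of all genes called, 5.09% rising and 3.94% falling. Ntn4 rose from 0.196, 0.237 and 0.379 to 1.23, 1.32 and 1.02, by 2.14 ± 0.42 (adjusted p = 0.000926 in limma), and Sema6d (0.46) and Sema4c (0.62) rose by less. Sema4d fell from 0.92, 1.39 and 2.3 to 0.383, 0.579 and 0.403, by 1.66 ± 0.29 (adjusted p = 0.000229). Ntn4 and Sema4d kept their calls in each of the 6 fits without 1 array, and the count was 2 without control E13 array 3 or control E16 array 1 or 2. Plxnc1 and Robo1 were not called. The E13 controls are labelled Foxl2+/- and the later controls carry no genotype label. Of 11 erythroid markers 3 fell (summed signal 1.68 to 8.96 at E16, 29.3 to 38.1 at E13), of 18 germ cell markers 5 rose and 4 fell (36.7 to 45 against 26.1 to 61.8), and of 11 stromal and smooth muscle markers 3 rose (45.6 to 48.5 against 27.7 to 48.2), and their part was not tested.

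From E16 to P0, 20 of the 70 genes fell and 3 rose, where 30.9% of all genes were called, 20.7% falling and 10.2% rising. The median difference was -0.45 for the 70 genes and -0.27 for all genes. Quantile normalization brought the median of all genes to -0.01, and then 5 rose and 13 fell. Among semaphorins 8 fell and 1 rose, and Sema6d went from 4.24, 4.59 and 3.83 to 2.18, 2.06 and 2.07, by -0.998 ± 0.14 (adjusted p = 2.22e-06 in limma). Sema4g (-1.50), Sema3a, a class 3 repellent (-1.58), Sema4c (-0.90) and Sema3f (-1.31) fell, and so did the ephrins Efnb3 (-1.52) and Efna2 (-0.94).

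Among receptors over the same interval, Epha7 went from 0.421, 0.417 and 0.449 to 0.0776, 0.112 and 0.0779, the arrays of both stages lying far apart, by -2.16 ± 0.31 (adjusted p = 4.45e-06 in limma). Plxna2 (-1.45) and Plxna3 (-1.17) fell, and the genes that rose were Epha4 (1.33), Sema4b (0.68) and Plxnc1 (0.55, adjusted p = 0.0408), of which the last was lost in 5 of 6 fits without 1 array. The netrin receptor Unc5d was called lower with a P0 mean signal of 0.00152, which is under the pseudocount. Ntn4 was at -0.59 and Robo1 at 0.11, and neither was called. Of 18 germ cell markers 9 rose and 1 fell, with sums of 77.1 to 131 at P0 and 36.7 to 45 at E16, and their part was not tested. Of the co-receptors and effectors, 4 rose and 4 fell from E13 to E16, and 8 rose and 13 fell from E16 to P0. The shares of all genes called were 9.02% and 30.9%, in that order.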

How the data were processed

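Total RNA of whole gonads was amplified once (Pico Ovation), labelled with biotin and hybridised to Affymetrix MOE430 v.2 arrays, with 1 mouse per array. The deposited values were linear plier intensities that the authors had scaled to a common global mean, 15970000 in the files, and array means differed by at most 0.0042%. The submitters' processing notes name GCOS 1.3. The files hold no detection calls, scan dates or depth, so the number of arrays limits the precision.

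From 45071 probe sets, 64 controls were left out. Each signal was divided by the common mean, 0.01 was added, and log2 was taken. A fit of 15 group means over all 43 arrays was made with limma 3.58.1 in R 4.3.3 (lmFit, eBayes with trend), with Benjamini-Hochberg adjustment over the 45007 probe sets. Residual degrees of freedom were 28. Genes came from the platform's probe-to-gene table: 34927 probe sets had 1 symbol, 930 several and 9150 none, and those with 1 symbol gave 18184 genes. The comparisons numbered 17, of which 13 were pairwise. No value was at or under 0, and no arrays were identical.

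The text names Ntn4, Plxnc1 and Robo1 throughout, every member called in a Foxl2 comparison, and up to 12 called members with the smallest adjusted p in each other comparison, as well as up to 3 genes of the co-receptor list, and each family's most variable member. Members in short counts are named too. The members and lists were chosen with earlier results of these data known. The scripts were tested on simulated data. Same-numbered arrays deviated together only in Foxl2-null against control ovary at E13 (correlations of 0.132 to 0.158 in 3 pairs), a pairing taken from the data since the labels state none. Alternatives were other pseudocounts, quantile normalization, a filter on dim probe sets, the arrays compared only, the array number as a block, the mean of all probe sets of a gene, and leaving out each array. The study's own test was not available here.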

Additional observations from a re-analysis of the deposited data

Results flagged for a closer look

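The change of the Foxl2-null difference in Plxnc1 from E16 to P0 was singled out because the differences at both stages were tested against each other. It was -1.60 ± 0.29 (adjusted p = 0.02 in limma), with a difference of -0.15 at E16, where the arrays overlapped, and of -1.75 at P0, where 3 of 3 null arrays lay below every control array. The call was lost in 6 of 12 fits without 1 array, with an adjusted p of at most 0.0796.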

How the results depend on the processing

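None of the 89 named calls turned its direction under any alternative tried, and 62 of them were kept in every fit without 1 array. The direction of called genes outside those named for a comparison was not followed. Counts of called genes that moved by more than 1.5 times were as follows. In Foxl2-null ovaries at E13 the count of 0 became 1 with a pseudocount of 5% of the mean, with quantile normalization and with the array number as a replicate block, the only comparison in which same-numbered arrays deviated together. At E16 the count of 2 became 1 with only probe sets above the median. In the Wnt4-null background the Foxl2 count of 4 became 7 with the mean of all probe sets. With the arrays compared only, the Foxl2 count in the Kit mutant background became 0, that of the 5-comparison mean 2, and the Kit mutant count 18. The Wnt4 interaction count became 1 with the filter, with the mean of all probe sets and with the replicate block. The cause was not tested. The block changed no other count by over 1.5 times.

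Leaving out 1 array at a time, the counts ran from 8 to 13 (sex at E13), 21 to 24 (sex at P0), 0 to 1 (Foxl2 at E13), 1 to 2 (E16), 2 to 2 (P0), 1 to 3 (Wnt4-null background), 2 to 2 (Kit mutant background), 2 to 6 (5-comparison mean), 0 to 0 (Foxl2+/-), 1 to 5 (Wnt4 at E15), 10 to 16 (Wnt4 at P0), 19 to 28 (Kit mutant), 2 to 5 (E16 against E13), 17 to 21 (P0 against E16), 0 to 1 (stage interaction), 0 to 1 (Wnt4 interaction) and 0 to 0 (Kit interaction).

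With the mean of all probe sets Ntn4 lost its call at P0 (adjusted p = 0.0596 in limma) and in the Wnt4-null background (0.278), and Robo1 lost its call in the Wnt4-null ovaries at E15 (0.261) and P0 (0.0932) and in the Kit mutant (0.711). Some differences that were not called changed sign. With the mean of all probe sets these were Plxnc1 at 0.073 (Foxl2-null, E13) and -0.22 (Foxl2+/-), Robo1 at -0.0693 (Foxl2 in the Kit mutant background), -0.27 (Foxl2+/-), 0.30 (E16 against E13), -0.56 (P0 against E16) and 0.11 (stage interaction), and Ntn4 at -0.19 (Wnt4-null, P0). With quantile normalization Robo1 was at 0.017 (Foxl2-null, E13). Without 1 array, Plxnc1 ran from -0.36 to 0.036 (Foxl2-null, E13), -0.28 to 0.033 (E16), -0.044 to 0.26 (Foxl2+/-) and -0.24 to 0.23 (Kit mutant), Robo1 from -0.32 to 0.056 (Foxl2-null, E13), -0.079 to 0.11 (Foxl2 in the Kit mutant background) and -0.0505 to 0.14 (Foxl2+/-), and Ntn4 from -0.065 to 0.25 (Wnt4-null, P0) and -1.11 to 0.62 (Kit interaction). Quantile normalization moved the median of all genes by over 0.1 from 0.07 to -0.04 in sex at P0 and from 0.16 to -0.02 from E13 to E16, beside the comparisons named above. No detection calls were used, so dim genes such as Unc5d and Epha8 carry only the error of the fit.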
